A study of Mus musculus with 6 samples.

Results

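The genes described here code for 4 families of RNA-binding proteins that act in pre-mRNA splicing. They were chosen by symbol, as genes whose symbol starts with Srsf, Hnrnp, Sf3a, Sf3b or Rbm followed by a digit. A member also needed 100 or more UMIs over all sections (unique molecular identifiers, each a counted product of probes ligated on a transcript). Of 19465 genes in the data, 75 had such a symbol and 74 reached the minimum. They comprise 11 SR protein genes (Srsf), 19 hnRNP genes (Hnrnp), 9 genes for subunits of the SF3a and SF3b complexes and 35 RNA-binding motif genes (Rbm). The gene just under the minimum was Rbm44 with 93 UMIs, and the lowest members above it were Rbm46 with 216 and Rbm11 with 432.

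Splicing removes introns from pre-mRNA. SR proteins bind exonic enhancers and generally promote the use of nearby splice sites, whereas many hnRNP proteins bind silencers and oppose them. SF3a and SF3b are parts of the U2 snRNP, the particle that recognizes the branch point of an intron. RBM is a naming class rather than a functional family: it holds splicing regulators and spliceosome components as well as proteins of ribosome assembly, RNA methylation and RNA editing. The brain is known for its extensive alternative splicing, and many SR and hnRNP genes regulate their own mRNA through unproductive splice forms.

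The data are Visium slides with formalin-fixed coronal sections of the brain from 6 untreated male C57BL/6J mice, 2 at each age, namely postnatal day 21 (P21), 12 to 15 weeks (adult) and 28 months (aged). The P21 mice were bred from purchased parents, the adult mice were purchased from the Jackson laboratory and the aged mice from the NIA. The methods of the study differ here, since they name the Jackson laboratory alone and do not separate the ages. P21 and adult sections lay on Visium v1 slides and went through Space Ranger 2.0.0. The aged sections were moved to Visium v2 slides by CytAssist and processed by Space Ranger 3.1.1. The study also describes an enhanced probe design for the v2 protocol, meant to capture transcripts more sensitively. In aged vs. adult, these differences and the source of the mice therefore coincide with age and cannot be told apart from it. In P21 vs. adult, the source of the mice likewise coincides with age and cannot be told apart from it. Sections held 2917 to 3679 spots and 42422997 to 106783660 UMIs, with a median of 12074.5 to 25535 UMIs per spot. Labels call the sections biological replicates, and sections, not spots, were the replicates in every test. The P21 and adult sections shared 2612 to 2997 spot barcodes by pair and the aged sections shared 3364 with each other, whereas no barcode was shared between aged and other sections.

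Spots were grouped into cortex (CTX, 4550 spots), hippocampus (HP, 1925), thalamus (TH, 3308), hypothalamus (HY, 3678), striatum (STR, 1129) and fiber tracts (FT, 1778) by clustering without any splicing gene, and 14.4% of the spots remained unnamed. A spot covers several cells, so fewer cells of a type and less RNA per cell cannot be told apart. Levels are given as CPM (UMIs relative to the total of the section or zone, with TMM scaling factors). The factors were computed over the sections within each zone or field, and not between zones. All 6 of 6 pan-neuronal markers were present, with a summed level of 5766 to 6905 CPM in whole sections and no marker at 0. Adult replicate 1 and aged replicate 2 stood apart in the summed hypothalamic panel (13 of 13 genes), at 310.5 and 370.4 CPM against 1084 to 1387 in the other sections, and values with and without each section are given where they change a call. Each gene was captured by its own probes, so levels are compared between sections and zones but not between genes. In aged vs. adult, any effect of the v2 probe design on single genes cannot be told apart from age.

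Upstream sequences are shown for the members on which the results turn. They are the 250 bases before the RefSeq transcription start on GRCm38.p6, 5′ to 3′ on the strand of the gene, for 3 members that rose in aged sections (Srsf2, Rbm17 and Hnrnpa2b1), for 1 that was lower at both other ages than in adults (Hnrnph3) and for the member with the steepest gradient between zones (Rbm24). Capitals mark matches, on either strand, to the core letters of promoter elements, namely CCAAT of the CCAAT box, GGGCGG of the GC box, CCGGAAG of sites for ETS factors, TGACGTCA of the cyclic AMP response element and TATAAA of the TATA box.
Srsf2: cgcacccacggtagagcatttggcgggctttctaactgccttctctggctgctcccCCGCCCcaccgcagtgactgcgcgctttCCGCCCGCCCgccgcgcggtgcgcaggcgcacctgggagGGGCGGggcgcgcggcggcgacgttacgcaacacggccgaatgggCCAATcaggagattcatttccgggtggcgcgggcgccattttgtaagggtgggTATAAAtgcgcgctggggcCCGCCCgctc
Rbm17: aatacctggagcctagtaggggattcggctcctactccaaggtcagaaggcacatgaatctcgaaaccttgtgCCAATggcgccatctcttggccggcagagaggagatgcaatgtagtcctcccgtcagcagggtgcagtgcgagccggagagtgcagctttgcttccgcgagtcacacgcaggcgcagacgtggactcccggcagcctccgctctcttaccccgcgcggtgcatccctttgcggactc
Hnrnpa2b1: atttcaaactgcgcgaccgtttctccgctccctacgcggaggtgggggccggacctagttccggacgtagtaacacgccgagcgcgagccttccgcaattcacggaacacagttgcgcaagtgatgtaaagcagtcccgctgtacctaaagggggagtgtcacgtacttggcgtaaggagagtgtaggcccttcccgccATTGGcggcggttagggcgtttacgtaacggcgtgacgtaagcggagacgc
Hnrnph3: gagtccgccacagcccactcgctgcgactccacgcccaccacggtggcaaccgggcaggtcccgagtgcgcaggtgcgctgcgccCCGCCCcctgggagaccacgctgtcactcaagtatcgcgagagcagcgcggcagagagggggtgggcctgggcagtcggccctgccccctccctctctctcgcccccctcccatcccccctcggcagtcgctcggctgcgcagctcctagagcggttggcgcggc
Rbm24: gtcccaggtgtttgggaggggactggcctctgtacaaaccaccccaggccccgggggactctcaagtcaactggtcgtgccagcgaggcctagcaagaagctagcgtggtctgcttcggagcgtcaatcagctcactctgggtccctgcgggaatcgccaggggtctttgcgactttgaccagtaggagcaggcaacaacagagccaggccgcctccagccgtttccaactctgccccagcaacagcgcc
The windows lie at chr11:116853095-116853344 on the minus strand for Srsf2, at chr2:11603200-11603449 on the minus strand for Rbm17, at chr6:51469895-51470144 on the minus strand for Hnrnpa2b1, at chr10:63023850-63024099 on the minus strand for Hnrnph3 and at chr13:46418050-46418299 on the plus strand for Rbm24. The GENCODE genes of Rbm17 and Hnrnph3 begin upstream of these RefSeq starts, so both windows lie within the annotated gene. The Srsf2 window held 5 GGGCGG matches, a neighbouring pair of which overlaps, with a CCAAT match that began 82 bases and a TATAAA match that began 29 bases before the start. In the Rbm17 window 1 CCAAT match began 177 bases before the start, and in the Hnrnpa2b1 window 1 match on the opposite strand began 51 bases before it. Hnrnph3 had 1 GGGCGG match, and the Rbm24 window had no match to any of them. Among 77 starts of 63 members in the RefSeq table, 44.2% had a CCAAT match, 57.1% a GC box, 27.3% an ETS match, 11.7% a TATA box and 0% a match to the cyclic AMP element. Among all 32851 promoters in it these shares were 33.8%, 32.7%, 6.91%, 12.4% and 1.55%. These matches describe letters and not binding. GC content was 59.6% for Hnrnpa2b1, 60.8% for Rbm17, 62.4% for Rbm24, 69.6% for Srsf2 and 73.6% for Hnrnph3. Sf3b4 and Rbm12b1 had no entry.

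Members were expressed throughout the brain with moderate differences between zones, which are given as a description. Of 74 members, 24 had their highest mean level in HY and 24 in STR, followed by 12 in HP, 11 in FT, 2 in CTX and 1 in TH. The lowest zone was TH for 39 members, CTX for 14 and FT for 13. Few of these places held in every section. The highest zone was the same in 6 of 6 sections for 4 members, 3 in STR and 1 in HY. TH was the lowest zone in 6 of 6 sections for 9 of its 39 members. Such counts were not made for all genes, so they do not set the members apart from other genes. The ratio of the highest to the lowest zone was 1.31 at the median, and 3 members spanned more than 1 on the log2(CPM + 1) scale. These were Rbm24, Rbm20 and Srsf12.

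Rbm24, a regulator of muscle splicing and of mRNA stability, had the steepest gradient. Over the 6 sections it averaged 83.2 ± 8.33 CPM (mean ± SD, n = 6) in STR, 53.8 ± 6.49 in HP, 51.5 ± 4.48 in CTX, 43.4 ± 8.30 in HY, 27.7 ± 6.38 in TH and 23.96 ± 10.5 in FT. STR was its highest zone in 6 of 6 sections, while HP and CTX differed by less than their spread, as did TH and FT. Srsf12, an SR-related protein gene, ranged from 30.97 ± 4.38 CPM in HY to 14.98 ± 4.58 in FT, and HY was the highest zone in 5 of 6 sections. These means pool all ages, and the FT means of Rbm24 and Srsf12 include the lower aged values given below. Rbm20, a splicing repressor known from titin in the heart, was low everywhere, from 8.29 ± 4.32 CPM in FT to 2.30 ± 0.955 in HP. Rbm47, a cofactor of RNA editing, averaged 3.82 ± 3.20 CPM in FT, where its sections ranged from 0.380 to 8.16, and 1.01 ± 0.235 in CTX. Rbm38, a relative of Rbm24, averaged 5.46 ± 1.69 CPM in HY and 2.45 ± 0.742 in CTX. Rbm20, Rbm38 and Rbm47 did not reach the detection limit of the tests, and their levels carry no test.

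**Figure D1:**
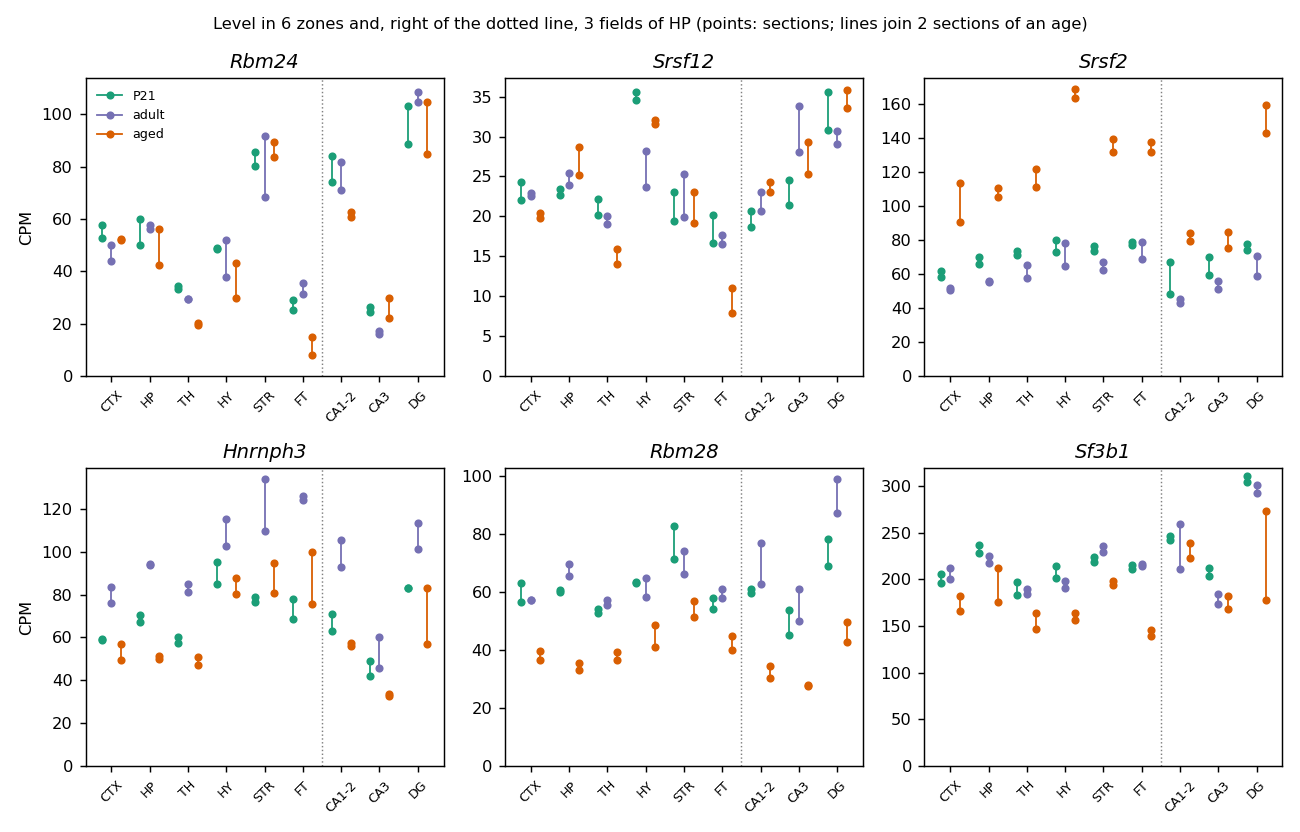
Level (CPM, y axis from 0) of Rbm24, Srsf12, Srsf2, Hnrnph3, Rbm28 and Sf3b1 in 6 zones and, right of the dotted line, 3 fields of the hippocampus. Points are sections and lines join the 2 sections of an age. By the mean over all ages, Rbm24 is highest in STR and DG and lowest in FT and CA3. Its aged FT sections, at 8.03 and 14.8 CPM, lie under the other 4, and in adult sections FT lies above TH. Aged sections lie above adult sections for Srsf2 in every zone shown.

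Within HP, the dentate gyrus (DG, 252 spots) had the highest level for 60 of 74 members, and for 26 of them in 6 of 6 sections. The share of all genes highest in DG was not computed, so this count does not show a trait of the members. CA3 (225 spots) was the lowest of the 4 parts for 47 members. The summed level of all members was 9621 ± 420.3 CPM (SD, n = 6) in DG, 7800 ± 287 in CA1-2, 7048 ± 181 in the surrounding matrix and 6626 ± 185 in CA3. In every section the DG sum, at 8962 CPM or more, exceeded every CA3 sum, which reached 6862 at most. The DG is packed with granule neuron bodies, whereas the matrix is mostly neuropil and glia. Whether this bears on the levels was not tested. Rbm24 stood at 99.1 ± 9.85 CPM in DG, 72.4 ± 9.58 in CA1-2 and 22.6 ± 5.42 in CA3. Hnrnpa3, an abundant hnRNP that binds trafficking elements of dendritic mRNA, averaged 589 ± 79.8 CPM in DG and 332 ± 21.9 in CA3. These fields were not tested by age because they rest on 20 to 65 spots per section outside the matrix. The make-up of HP differed between ages. Matrix spots were 225 of 329 and 220 of 297 HP spots in P21 and 248 of 350 and 304 of 423 in adult sections. In aged sections they were 150 of 286 and 119 of 240. The part of this in the HP and zone-by-age values below was not tested.

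**Figure D2:**
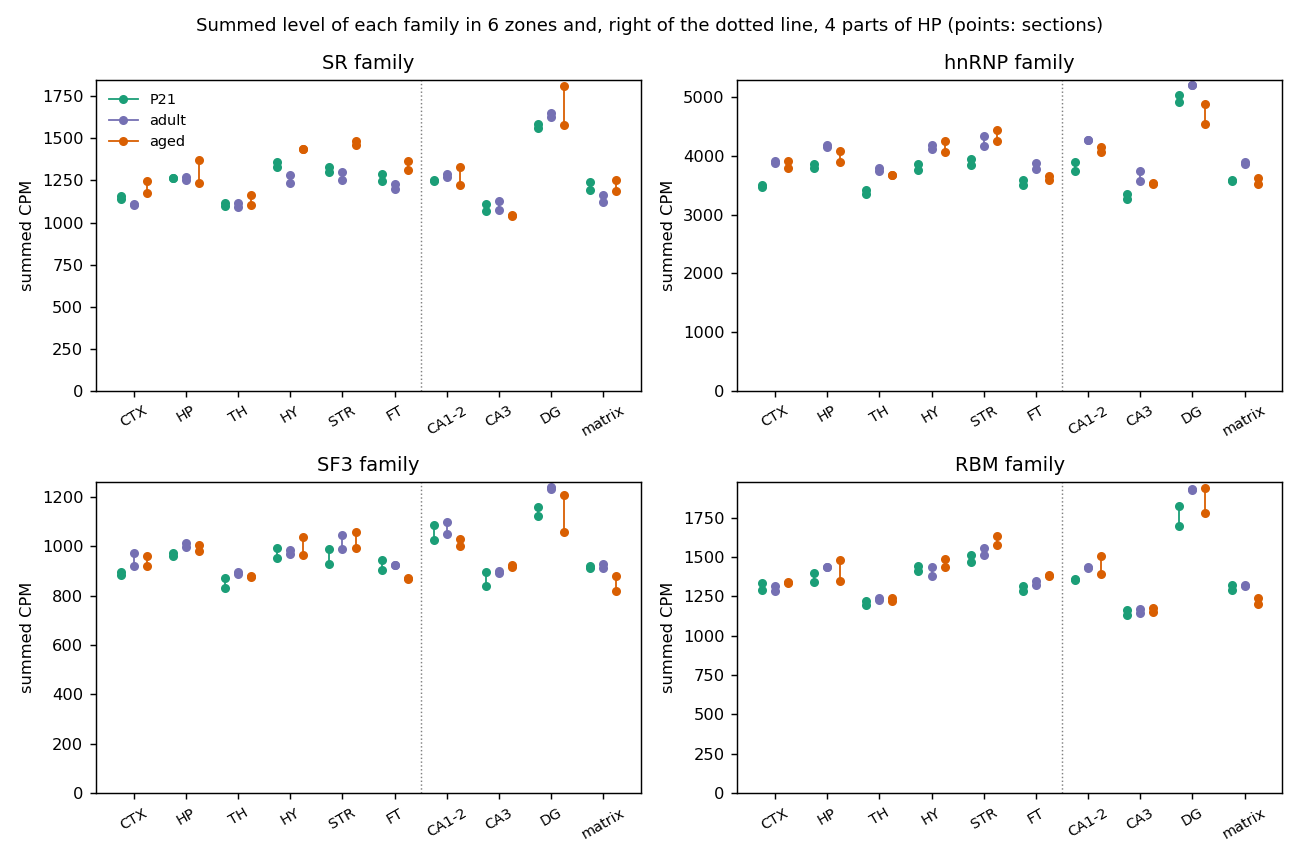
Summed CPM (y axis from 0) of the SR, hnRNP, SF3 and RBM members in 6 zones and, right of the dotted line, 4 parts of the hippocampus. Points are sections and lines join the 2 sections of an age. All families are highest in DG and low in TH and CA3. P21 sections lie under adult sections for hnRNP genes in all 6 zones.

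Summed over all members, whole sections held 7084 ± 52.1 CPM (SD, n = 2) at P21, 7452 ± 37.3 in adult and 7449.8 ± 21.3 in aged mice. The P21 sections, at 7121 and 7047 CPM, lay below every adult and aged section, which held 7425 to 7478. The hnRNP genes differed most, with 3611 ± 32.2 CPM (P21), 3957 ± 28.5 (adult) and 3879 ± 53.99 (aged), and the P21 sections were below both adult sections. SR genes held 1223 ± 8.87 CPM (P21), 1185 ± 5.52 (adult) and 1261 ± 48.8 (aged). For SF3 genes the sums were 917 ± 16.6, 956 ± 13.3 and 941 ± 17.7 in the same order, and for RBM genes 1332 ± 5.59, 1354 ± 1.03 and 1368 ± 1.61. These sums follow the most abundant members and carry no test.

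To ask which members change during maturation, UMIs summed per section were fitted in edgeR (quasi-likelihood) and P21 was set against adult. Adjusted p are Benjamini-Hochberg values over all genes tested, and calls needed an adjusted p under 0.05 with a fold change over 1.5. Of 74 members, 65 passed the filters on low values for P21 vs. adult and 66 for aged vs. adult. Those too low in both were Rbm11, Rbm12b2, Rbm20, Rbm38, Rbm46, Rbm47, Rbm8a and Rbm8a2, and Srsf10 was too low for P21 vs. adult. Few members changed: in whole sections 1 of 65 members tested was called (1.54%), whereas 5.19% of all 11153 genes tested were called (3.42% higher and 1.78% lower). At an adjusted p under 0.05 alone, 2 members rose and 7 fell at P21, together 13.8% of those tested against 28% of all genes (14.4% higher and 13.5% lower). The median log2 fold change of the members was −0.05 and that of all genes 0.00. The members ranged from −0.47 to 0.65.

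Of 19 hnRNP genes, 1 rose and 6 fell at P21, and 12 did not pass an adjusted p of 0.05. Of all genes, 14.4% rose and 13.5% fell at that limit. Hnrnph3, of the hnRNP H/F group that binds G-rich RNA, stood at 70.2 and 68.3 CPM (P21), 93.7 and 98.5 (adult) and 65.6 and 58.7 (aged). The adult sections were both above all other sections. The log2 difference P21 minus adult was −0.47 ± 0.07 (SE; edgeR, adjusted p = 0.00216), under the fold limit. Values in parentheses below are likewise log2 differences from adult with their SE. The SE is not an output of edgeR's test and was taken as the absolute difference divided by the square root of its F statistic. Hnrnpa1, a general splicing repressor, stood at 118 and 102 CPM (P21), 141 and 151 (adult) and 161 and 161 (aged), with both P21 sections lowest (−0.41 ± 0.07, adjusted p = 0.00451). Hnrnpa1 has near-identical copies in the genome, so its count is uncertain. Hnrnpd, known for its role in mRNA decay, was lower at P21 (−0.34 ± 0.07, adjusted p = 0.00618), as were Hnrnpul2 (−0.30 ± 0.06, adjusted p = 0.00592), Hnrnpa3 (−0.29 ± 0.06, adjusted p = 0.00694) and Hnrnpm (−0.23 ± 0.06, adjusted p = 0.0277).

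Hnrnpr, known to bind actin mRNA in axons, moved in the other direction and was the member called in whole sections. Its level was 15.4 and 11.6 CPM (P21), 8.60 and 8.76 (adult) and 12.05 and 14.7 (aged). Both P21 sections and both aged sections were above the adult sections (0.65 ± 0.15, adjusted p = 0.0125 for P21 vs. adult). The P21 call was lost without either of 2 sections: without P21 replicate 1 the difference was 0.41 (adjusted p = 0.124) and without adult replicate 1 it was 0.63 (adjusted p = 0.0567). Among the other families, Srsf6, an SR protein, rose at P21. It stood at 189 and 189 CPM (P21), 157 and 143 (adult) and 167 and 177 (aged) (0.34 ± 0.06, adjusted p = 0.00412), with adult sections lowest. Rbm4, which shares sequence with its neighbour Rbm4b, was lower at P21 (−0.25 ± 0.06, adjusted p = 0.0161), and no SF3 gene passed edgeR's adjusted p, with 3 of 9 under an unadjusted p of 0.05. Srsf2 (0.22 ± 0.07, adjusted p = 0.0543), Rbm33 (0.20 ± 0.08, adjusted p = 0.0892) and Rbm15b (0.13 ± 0.09, adjusted p = 0.342), among the highest members by mean over the zones, did not pass it.

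By zone, 5 of 392 member tests were called for P21 vs. adult (1.28%), against 6.01% of all gene tests in the 6 zones (3.93% higher and 2.08% lower). Hnrnpa1 was lower in CTX, at 107 and 89.7 CPM in P21 and 149 and 155 in adult sections (−0.61 ± 0.09, adjusted p = 0.00074). Hnrnph3 was lower in STR (−0.65 ± 0.13, adjusted p = 0.00408) and FT (−0.75 ± 0.12, adjusted p = 0.000369), where it stood at 77.8 and 68.7 CPM in P21 and 126 and 124 in adult sections. Hnrnpr was higher in CTX (0.62 ± 0.16, adjusted p = 0.0186) and FT (0.76 ± 0.20, adjusted p = 0.0167). Backgrounds were 5.55% of genes in CTX, 3.92% in STR and 8.62% in FT. No member was called by edgeR in HP, TH or HY, where 6.86%, 7.07% and 3.98% of all genes were. In these zones 11, 15 and 8 members had an unadjusted p under 0.05. The share of all genes under that unadjusted p was not computed, here or for the SF3 genes above. DESeq2 made 4 member calls over all 6 zones, and the share of all genes it called is not given.

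Calls other than that of Hnrnph3 in FT were lost when a section was left out. Hnrnpr in CTX was 0.34 (adjusted p = 0.366) without P21 replicate 1, 0.62 (adjusted p = 0.089) without adult replicate 1 and 0.61 (adjusted p = 0.0924) without adult replicate 2. Hnrnpr in FT was 0.68 (adjusted p = 0.15), 0.71 (adjusted p = 0.103) and 0.79 (adjusted p = 0.0841) in the same order. Hnrnph3 in STR was −0.62 (adjusted p = 0.142) without P21 replicate 1 and −0.50 (adjusted p = 0.0756) without adult replicate 2. Hnrnpa1 in CTX fell short of the fold limit, at −0.50 (adjusted p = 0.0225) without P21 replicate 2, −0.58 (adjusted p = 0.00828) without adult replicate 2 and −0.55 (adjusted p = 0.00135) with zones drawn from the marker panel scores of each spot. The FT call of Hnrnpr was also lost in DESeq2, at 0.75 (adjusted p = 0.146), and on interior spots, whose neighbours all lie in the same zone, at 0.82 (adjusted p = 0.051). P21 sections also held more myelin transcript, with a summed FT panel of 26053 and 27179 CPM against 13178 and 12890 in adults (11 of 11 markers present), and more erythrocyte transcript, with 2290 and 1295 against 317 and 166 (4 of 4). Panels of oligodendrocyte precursors (5 of 5), at 467 and 458 against 268 and 259 CPM, and of immature neurons (4 of 4), at 364 and 383 against 238 and 247, were higher too, and that of immediate early genes (5 of 5) was lower, at 142 and 148 against 346 and 215. The part of these in the member differences was not tested.

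**Figure D3:**
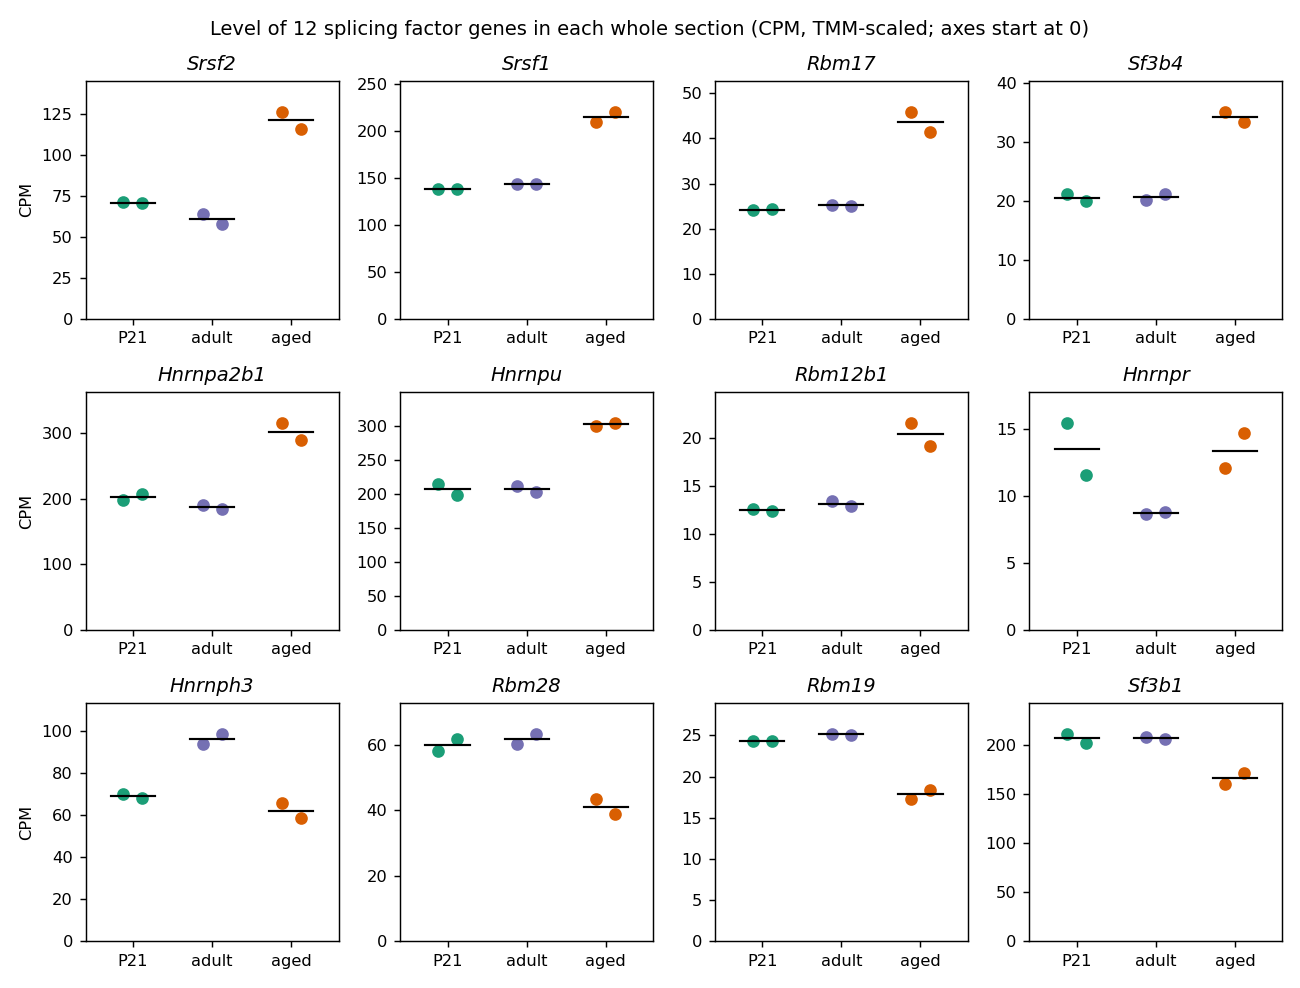
Level in whole sections (CPM, y axis from 0) of 12 members. Points are sections and bars are the mean of the 2 sections of an age. In the 8 upper panels the aged sections lie above the adult sections, as for Srsf2 at 126 and 116 against 63.8 and 57.8 CPM. In the 4 lower panels they lie below, and Hnrnph3 is also lower at P21.

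To ask which members change in old age, aged was compared with adult in the same way. In whole sections 8 of 66 members tested were called (12.1%), against 8.88% of all 11315 genes tested (6.04% higher and 2.85% lower). Srsf2, Rbm17, Sf3b4, Hnrnpa2b1, Rbm12b1 and Hnrnpr rose, by 1.54-fold for Hnrnpr to 1.99-fold for Srsf2, and Hnrnph3 and Rbm28 fell. At an adjusted p under 0.05 alone, 17 members rose and 15 fell, which is 48.5% of the members and 48.5% of all genes (24.9% higher and 23.5% lower). The median log2 fold change was 0.00 for members and for all genes, and the members ranged from −0.63 to 0.99. The comparison shares its adult sections with P21 vs. adult. Transcript of 5 immediate early genes (5 of 5, none at 0) moved with the comparison, at 346 and 215 CPM in adult and 1199 and 1046 in aged sections. The panel of mature oligodendrocytes (6 of 6) stood at 3706 and 3543 CPM in adult and 2720 and 2453 in aged sections, and that of their precursors (5 of 5) at 268 and 259 and at 185 and 175. Microglial transcript (6 of 6) was 412 and 417 in adult and 532 and 483 in aged sections, and that of immature neurons (4 of 4) 238 and 247 and 185 and 177. None of these genes was at 0 in any section. The part of these panels in the member values was not tested. When genes of low level were not filtered out, 3 of the whole-section calls fell under the fold limit, namely Rbm12b1 at 0.51 (adjusted p = 0.000562), Hnrnpr at 0.50 (adjusted p = 0.00649) and Hnrnpa2b1 at 0.57 (adjusted p = 2.73e-05).

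Among SR genes, Srsf2 had the largest rise of the 66 members tested in whole sections. Srsf2 (chr11:116849901-116853094, minus strand, GRCm38) codes for a core component of nuclear speckles. It stood at 71.1 and 70.6 CPM (P21), 63.8 and 57.8 (adult) and 126 and 116 (aged). The aged sections were well above the other 4, with a log2 difference aged minus adult of 0.99 ± 0.07 (SE; edgeR, adjusted p = 4.19e-05), or 1.99-fold. It was called in 6 of 6 zones, by 0.87 in FT to 1.22 in HY, and the 7 calls were kept under every alternative run, a test against the fold limit and each left-out section included. In HY the aged sections held 169 and 164 CPM against 78.1 and 64.8 in adults, and in DG 159 and 143 against 70.7 and 58.9. Srsf1, the prototype SR protein, stood at 138 and 138 CPM (P21), 144 and 144 (adult) and 209.9 and 221 (aged). Its rise (0.58 ± 0.05, adjusted p = 7.36e-05) was just under the fold limit in whole sections, and it was called in every zone other than HP, by 0.60 in TH to 0.72 in STR. In FT the Srsf1 call was lost without aged replicate 2, at 0.58 (adjusted p = 0.0003), and without the filter on low genes, at 0.54 (adjusted p = 0.000445), both under the fold limit. In TH it was lost with plain CPM, at 0.58 (adjusted p = 0.000291), and without the filter, at 0.57 (adjusted p = 0.00194).

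Other SR genes moved less or in the other direction. In whole sections 4 of 11 SR genes rose, 2 fell and 5 did not pass the adjusted p, while 24.9% of all genes rose and 23.5% fell. Srsf6 rose (0.20 ± 0.06, adjusted p = 0.0243), from 157 and 143 CPM in adult to 167 and 177 in aged sections. Srsf5 fell (−0.39 ± 0.09, adjusted p = 0.00641), as did Srsf9 (−0.32 ± 0.06, adjusted p = 0.00192), which stood at 147 and 156 CPM (P21), 142 and 146 (adult) and 117 and 113 (aged). The aged sections were lowest for both. Srsf11 (−0.01 ± 0.08, adjusted p = 0.905), Srsf3 (0.00 ± 0.07, adjusted p = 0.965) and Srsf12 (−0.05 ± 0.09, adjusted p = 0.662) did not pass.

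Of 19 hnRNP genes, 5 rose, 7 fell and 7 did not pass, against 24.9% of all genes higher and 23.5% lower. Hnrnpa2b1 (chr6:51460932-51469894, minus strand), known for transport of myelin basic protein mRNA and for sorting RNA into vesicles, stood at 198 and 208 CPM (P21), 191 and 184 (adult) and 316 and 289 (aged). Aged sections were again above all others (0.69 ± 0.06, adjusted p = 9.17e-05). It was called in every zone other than HP, where the rise (0.56 ± 0.08, adjusted p = 0.000646) was under the fold limit, and had its highest values in STR (0.93) and FT (0.88). Its TH value was 0.50 (adjusted p = 0.000205) without aged replicate 1 and 0.58 (adjusted p = 0.00422) without the filter on low genes, both under the fold limit. Hnrnpu, a nuclear scaffold protein, rose from 211 and 203 CPM in adult to 300.2 and 304 in aged sections (0.54 ± 0.06, adjusted p = 0.000188) and was called in CTX and STR. Both Hnrnpu calls fell under the fold limit without adult replicate 2, at 0.55 (adjusted p = 0.00348) and 0.56 (adjusted p = 0.00167), and the CTX call also with plain CPM, at 0.58 (adjusted p = 0.000104), and without the filter, at 0.55 (adjusted p = 5.95e-09).

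Hnrnpr rose in aged as it did in P21 sections when set against the same adult sections (0.62 ± 0.15, adjusted p = 0.00773), was called in CTX and HY, and stood at 0.05 ± 0.22 in FT (adjusted p = 0.871). Without aged replicate 2 the whole-section value was 0.47 (adjusted p = 0.0389) and the CTX value 0.56 (adjusted p = 0.0224), both under the fold limit. The CTX call was also lost without the filter, at 0.58 (adjusted p = 0.00101), and with UMIs thinned to the lowest sum, at 0.53 (adjusted p = 0.055). The HY call was lost without adult replicate 1, at 0.72 (adjusted p = 0.128), without adult replicate 2, at 1.03 (adjusted p = 0.0518), without aged replicate 2, at 0.79 (adjusted p = 0.0571), and with thinned UMIs, at 0.77 (adjusted p = 0.0504). Hnrnpf, a relative of Hnrnph3 in the H/F group, was called in FT, with 49.8 and 52.9 CPM in aged and 33.4 and 30.6 in adult sections (0.68 ± 0.13, adjusted p = 0.000378), but not without the filter on low genes, at 0.55 (adjusted p = 0.00429). Hnrnph3 itself (chr10:63014664-63024217, minus strand) fell, at the levels given above (−0.63 ± 0.07, adjusted p = 0.000259). It was called in CTX, HP and TH, with the largest fall in HP, from 94.5 and 93.6 to 51.3 and 49.9 CPM (−0.89 ± 0.09, adjusted p = 7.11e-05). Over all sections Hnrnph3 averaged 78.7 CPM in the matrix and 43.9 in CA3, and HP of aged sections held fewer matrix spots. The part of this in its HP fall was not tested. Without aged replicate 2 the Hnrnph3 value was −0.55 (adjusted p = 0.000463) in whole sections and −0.49 (adjusted p = 0.00126) in CTX, and without adult replicate 2 it was −0.52 (adjusted p = 0.00815) in CTX, where interior spots gave −0.57 (adjusted p = 0.00069), all short of the fold limit. Hnrnpa3 fell (−0.28 ± 0.06, adjusted p = 0.00467), as did Hnrnpdl (−0.28 ± 0.09, adjusted p = 0.0376). Hnrnpm rose slightly (0.23 ± 0.06, adjusted p = 0.0148), and Hnrnpk (−0.08 ± 0.06, adjusted p = 0.362), Hnrnpd (−0.01 ± 0.07, adjusted p = 0.881) and Hnrnpa1 (0.14 ± 0.07, adjusted p = 0.154) did not pass.

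In the SF3 complexes 2 genes rose, 2 fell and 5 of 9 did not pass, against 24.9% of all genes higher and 23.5% lower. Sf3b4 (chr3:96172332-96177564, plus strand), which contacts pre-mRNA next to the branch point, stood at 21.1 and 19.98 CPM (P21), 20.2 and 21.1 (adult) and 35.1 and 33.4 (aged). The aged sections were above the other 4 (0.73 ± 0.07, adjusted p = 0.0001), and the gene was called in every zone other than TH (0.57 ± 0.12, adjusted p = 0.00391). Calls in HP and FT were lost without adult replicate 2, at 0.73 (adjusted p = 0.0657) and 0.56 (adjusted p = 0.0381), and the HP call without adult replicate 1 as well, at 0.75 (adjusted p = 0.0612). On interior spots the FT value was 0.37 (adjusted p = 0.172), and with thinned UMIs the CTX value was 0.55 (adjusted p = 0.00428), and neither was a call. Sf3a3, the other SF3 gene that rose, did so by 0.47 ± 0.07 (adjusted p = 0.000645). Sf3b1, the largest subunit, fell. It stood at 211 and 202 CPM (P21), 208 and 206 (adult) and 160.2 and 172 (aged), with the aged sections lowest (−0.32 ± 0.06, adjusted p = 0.00182). Its call in FT, where adult sections held 214 and 216 and aged sections 139 and 146 CPM (−0.60 ± 0.09, adjusted p = 6.44e-05), fell under the fold limit without aged replicate 1, at −0.56 (adjusted p = 0.000823), with thinned UMIs, at −0.56 (adjusted p = 0.000158), and with zones from panel scores, at −0.56 (adjusted p = 0.000653). Sf3b5 also fell (−0.39 ± 0.06, adjusted p = 0.00123). Sf3b2 (0.04 ± 0.06, adjusted p = 0.649) and Sf3b6 (0.11 ± 0.06, adjusted p = 0.173) did not pass. Within SF3b, Sf3b4 thus rose while Sf3b1 and Sf3b5 fell in the same sections.

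Of the 35 RBM genes 27 were tested, of which 6 rose, 4 fell and 17 did not pass. Among all genes 24.9% rose and 23.5% fell. Rbm17 (chr2:11585437-11604153, minus strand), a spliceosome component that acts at the downstream splice site, stood at 24.1 and 24.3 CPM (P21), 25.3 and 25.02 (adult) and 45.9 and 41.4 (aged). P21 and adult sections lay close together and the aged sections above them (0.79 ± 0.07, adjusted p = 6.97e-05). It was called in 6 of 6 zones, by 0.66 in TH to 0.89 in HY. In TH it fell under the fold limit without aged replicate 1, at 0.56 (adjusted p = 0.0043), and with thinned UMIs, at 0.57 (adjusted p = 0.00598). Rbm12b1, an RBM gene with a near-identical neighbour, Rbm12b2, so that its count is uncertain, rose from 13.4 and 12.8 to 21.5 and 19.1 CPM (0.63 ± 0.09, adjusted p = 0.000606) and was called in CTX, HP and STR. Without aged replicate 1 the whole-section value was 0.54 (adjusted p = 0.00159), under the fold limit. The HP call was lost without adult replicate 2, at 0.70 (adjusted p = 0.0546), and the STR call without adult replicate 1, at 0.53 (adjusted p = 0.158), without aged replicate 1, at 0.57 (adjusted p = 0.0762), and in DESeq2, at 0.70 (adjusted p = 0.113). Rbm15b, a subunit of the RNA methylation machinery, rose (0.56 ± 0.09, adjusted p = 0.00132) and was called in HY and STR. The HY call was lost without adult replicate 1, at 0.70 (adjusted p = 0.0582), without adult replicate 2, at 0.50 (adjusted p = 0.128), without aged replicate 1, at 0.45 (adjusted p = 0.0607), without the filter, at 0.55 (adjusted p = 0.025), and on interior spots, at 0.43 (adjusted p = 0.111). Rbm25 rose slightly (0.22 ± 0.06, adjusted p = 0.0131), and Rbm39 (0.01 ± 0.05, adjusted p = 0.894) and Rbm5 (−0.10 ± 0.06, adjusted p = 0.192) did not pass.

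Rbm28 and Rbm19, which are best known as nucleolar proteins of ribosome assembly rather than splicing, fell. Rbm28 (chr6:29123576-29165006, minus strand) stood at 58.3 and 61.9 CPM (P21), 60.3 and 63.2 (adult) and 43.3 and 38.9 (aged). The aged sections were below all others (−0.59 ± 0.07, adjusted p = 0.000328). In HP it fell from 65.4 and 69.7 to 35.4 and 33.2 CPM (−0.98 ± 0.10, adjusted p = 7.67e-05), and DG sections held 87.4 and 99.1 CPM in adult and 49.6 and 42.9 in aged mice. It was also called in CTX (−0.59 ± 0.09, adjusted p = 0.000371). Without aged replicate 2 the Rbm28 values were −0.51 (adjusted p = 0.000705) in whole sections and −0.53 (adjusted p = 0.00101) in CTX, and without adult replicate 2 the whole-section value was −0.55 (adjusted p = 0.00314), all short of the fold limit. The CTX value was also short of it with zones from panel scores, at −0.55 (adjusted p = 0.000845), and on interior spots, at −0.56 (adjusted p = 0.000752). The HP call was kept whichever section was left out. Rbm19 stood at 24.3 and 24.4 CPM (P21), 25.1 and 25.1 (adult) and 17.3 and 18.4 (aged) (−0.49 ± 0.07, adjusted p = 0.000597), with aged sections lowest, and was called in TH, STR and FT. The STR call was lost without adult replicate 2, at −0.53 (adjusted p = 0.147), and in DESeq2, at −0.72 (adjusted p = 0.0613). The FT call was lost without aged replicate 1, at −0.48 (adjusted p = 0.0642), and with zones from panel scores, at −0.39 (adjusted p = 0.0527). In TH Rbm19 fell short of the fold limit without adult replicate 2, at −0.54 (adjusted p = 0.0369), and without aged replicate 2, at −0.56 (adjusted p = 0.00408). Rbm45, an RNA-binding protein of neural development, fell (−0.38 ± 0.07, adjusted p = 0.00213) and was called in STR (−0.63 ± 0.13, adjusted p = 0.000993). With thinned UMIs its STR value was −0.39 (adjusted p = 0.108). It fell short of the fold limit without adult replicate 1, at −0.58 (adjusted p = 0.0194), with zones from panel scores, at −0.46 (adjusted p = 0.0118), and on interior spots, at −0.55 (adjusted p = 0.0274).

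**Figure D4:**
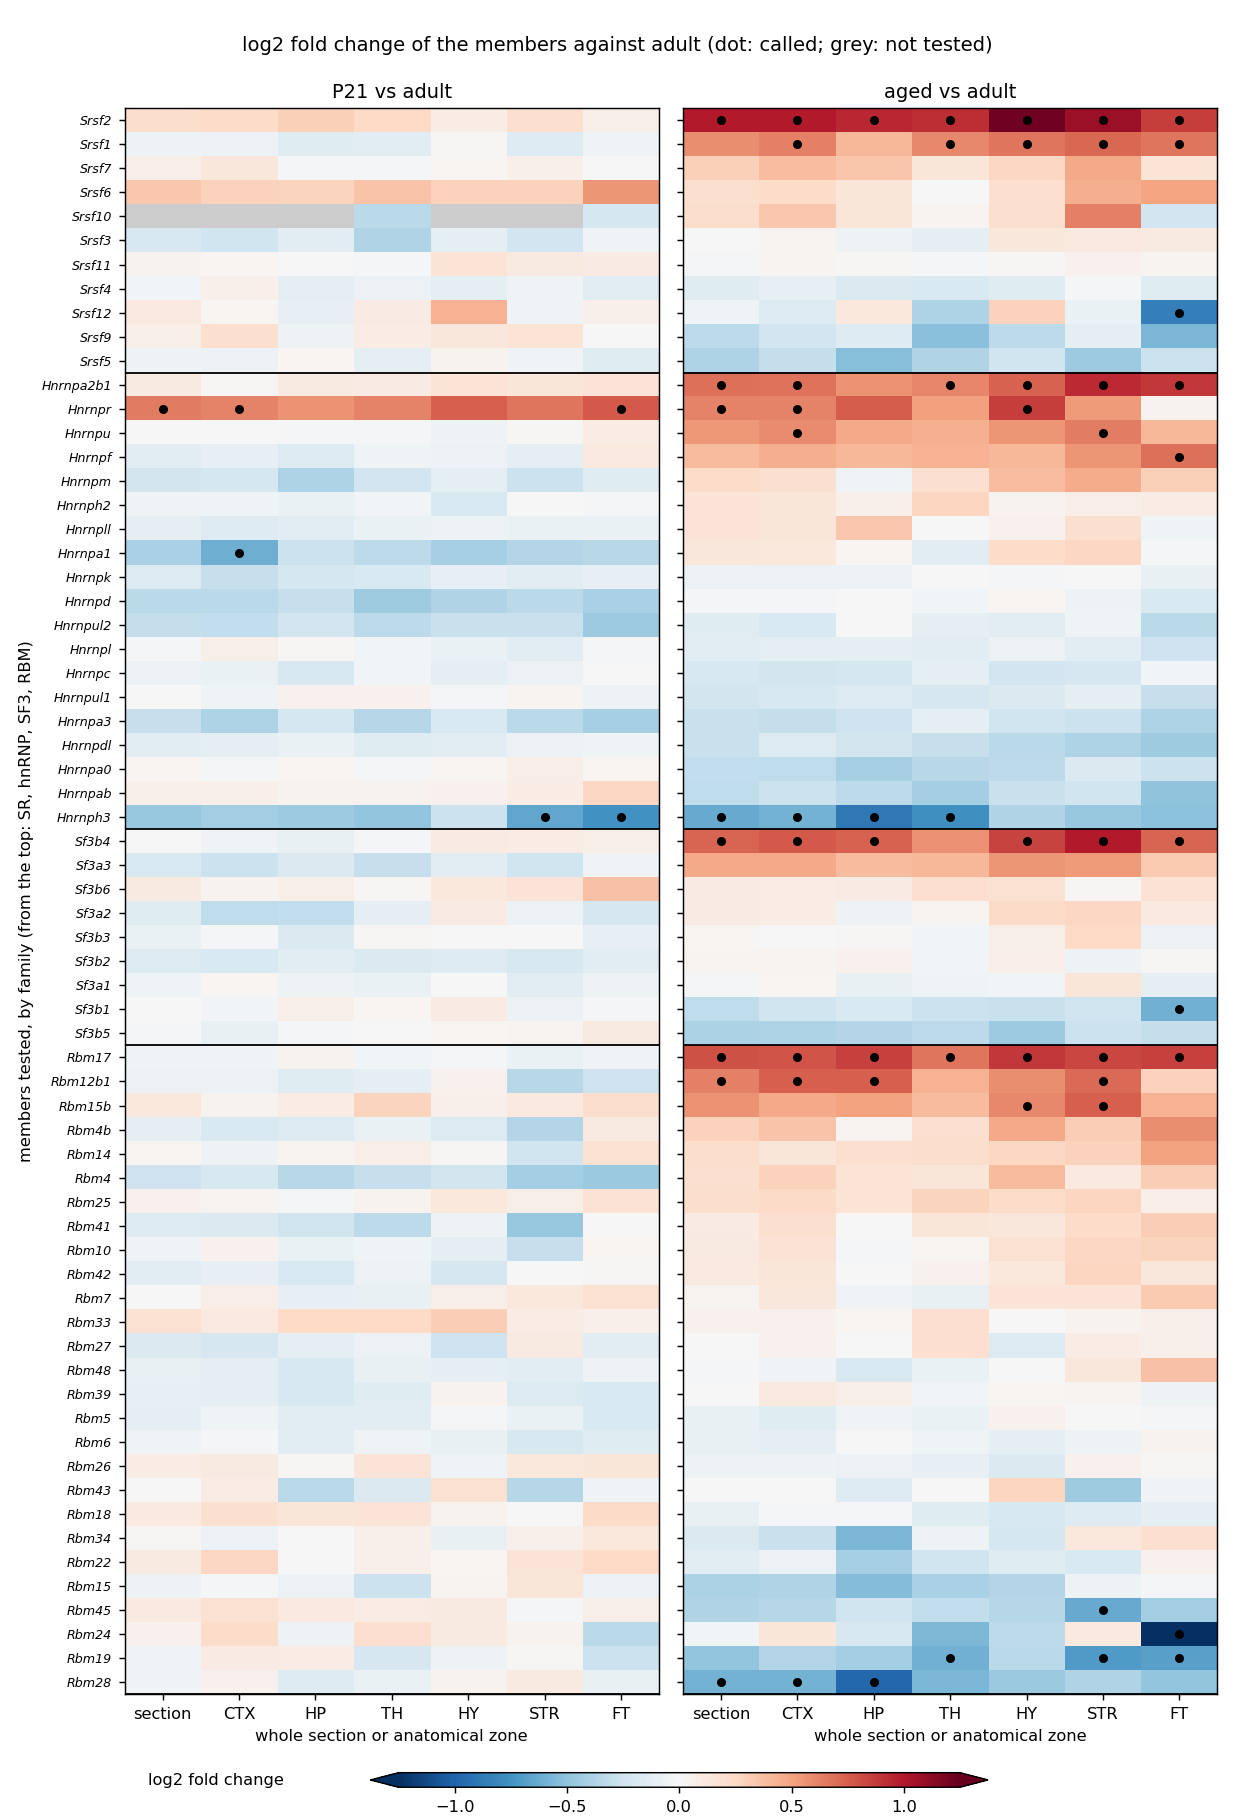
Log2 fold change (colour) of every member tested, in rows by family, in whole sections and 6 zones, for P21 vs. adult and aged vs. adult. Dots mark calls (adjusted p under 0.05 and fold over 1.5) and grey cells were not tested. The left panel has 6 dots and the right panel 57, with Srsf2 and Rbm17 marked in every column of the right panel and Rbm24 called in FT alone.

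Over the 6 zones, 49 of 396 member tests were called in aged vs. adult (12.4%), 37 higher and 12 lower, against 14.5% of all gene tests (7.97% higher and 6.49% lower). They came from 17 members. CTX, STR and FT had 10 called members each, HY 7, and HP and TH 6 each, of 66 tested. Backgrounds were 10.8% of genes in CTX, 14.4% in STR, 24.4% in FT, 11.9% in HY, 11.8% in HP and 13.7% in TH. Higher in at least 4 zones were Srsf2, Rbm17, Sf3b4, Hnrnpa2b1 and Srsf1, and no member was lower in so many. The shares of all genes called in any zone or in at least 4 zones were not computed. The counts of 17 members and of those in at least 4 zones therefore do not set the members apart from other genes. With a test against the 1.5-fold limit itself (glmTreat), 8 higher and 3 lower calls remained over the zones and 1 in whole sections, Srsf2. The share of all genes that kept a call under this test is not given, so the drop is not particular to the members.

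Rbm24 and Srsf12 fell in FT and were not called in any other zone. Rbm24 stood in FT at 25.2 and 28.9 CPM (P21), 31.3 and 35.6 (adult) and 8.03 and 14.8 (aged). The aged sections were far below the other 4 (−1.55 ± 0.21, adjusted p = 2.48e-05), and the call was kept under every alternative run. In whole sections the groups overlapped and Rbm24 did not pass, with 43.2 and 47.7 CPM in adult and 43.8 and 44.9 in aged sections (−0.04 ± 0.07, adjusted p = 0.69), and in STR the groups overlapped too (0.12 ± 0.12, adjusted p = 0.494). In TH it fell from 29.2 and 29.4 to 19.4 and 20.4 CPM, under the fold limit (−0.56 ± 0.11, adjusted p = 0.00247). Srsf12 also fell in FT, from 16.6 and 17.6 to 7.83 and 11.1 CPM (−0.85 ± 0.21, adjusted p = 0.00344), a call that was lost with zones drawn from marker panels, at −0.45 (adjusted p = 0.111). FT spots of aged sections held less transcript of neurons: the summed pan-neuronal panel (6 of 6 genes, none at 0) was 4448 and 4183 CPM in adult and 3021 and 2886 in aged sections. The striatal panel (10 of 10, with 1 gene at 0 in some section) went from 912 and 733 to 309.7 and 472, and the cortical panel (8 of 8, none at 0) from 299.7 and 217 to 105 and 105. Microglial transcript (6 of 6, none at 0) went from 561 and 625 to 1667 and 1766 CPM, and that of mature oligodendrocytes (6 of 6, none at 0) from 11746 and 10763 to 15200 and 14483. The part of these in the Rbm24 and Srsf12 values, or in the FT values of any other member, was not tested.

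**Figure D5:**
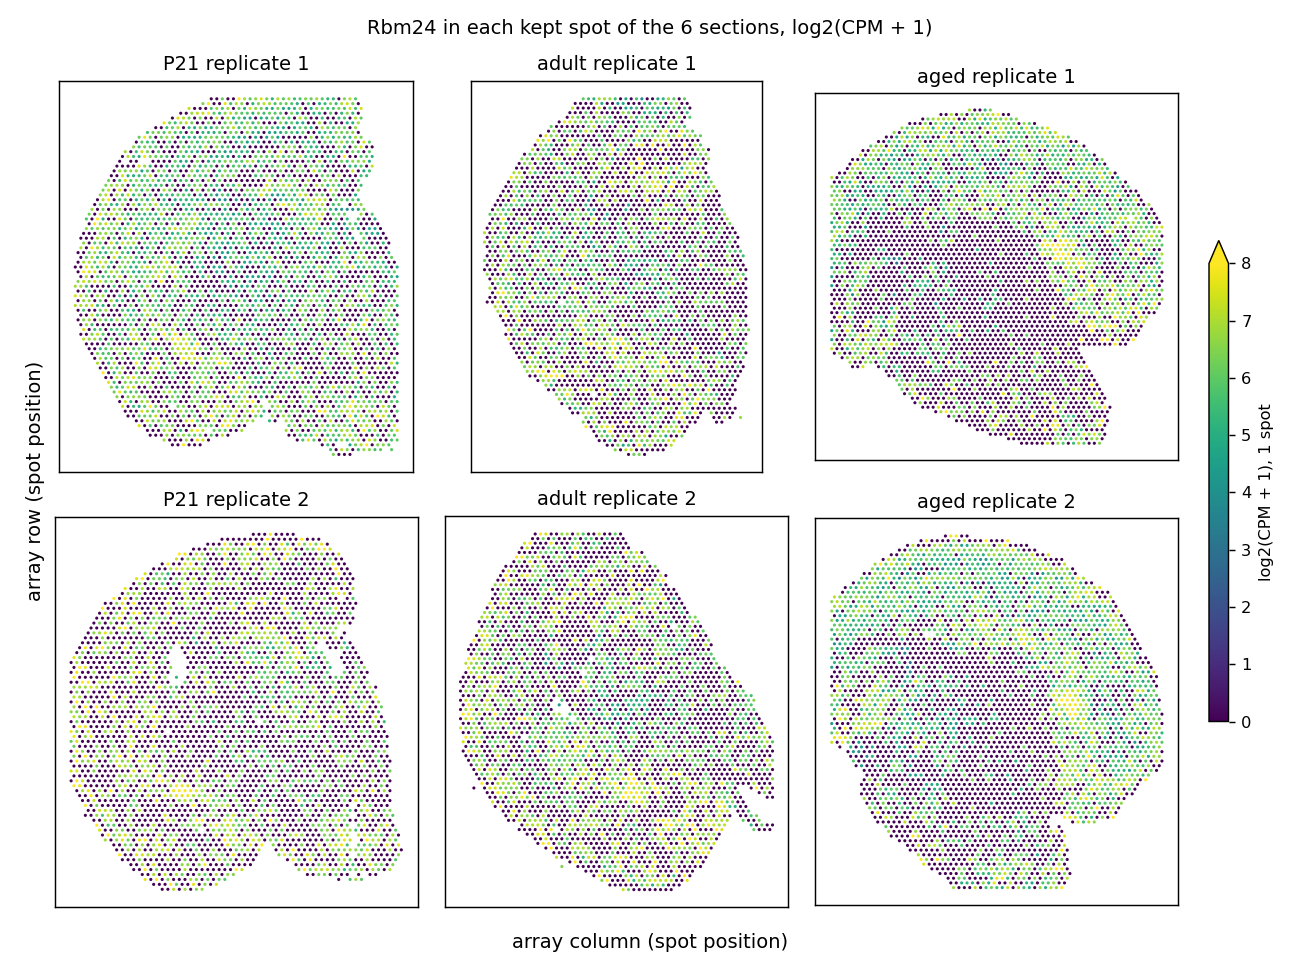
Rbm24 in each kept spot of the 6 sections, as log2(CPM + 1) by colour, at the row and column of the spot on the array. Yellow spots are the highest and the darkest spots had no UMI, and a spot with 1 UMI is higher in CPM where the spot had fewer UMIs. Spots with at least 1 UMI made up 41.0% to 62.8% of a section, and in the aged sections a central territory with few positive spots stands out from the rim.

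Whether the age difference differs between zones was tested with 5 zone-by-age terms in a model of 36 sums that held each section as a block, which removes what acts alike on a whole section. In P21 vs. adult 1 of 66 members passed (1.52%), Hnrnph3, against 10.9% of all genes. In aged vs. adult 15 of 66 members passed (22.7%), against 42.5% of all genes. The smallest values were those of Srsf12 (adjusted p = 0.000155), Rbm24 (0.000184), Hnrnpm (0.000324), Rbm28 (0.000551) and Hnrnpa1 (0.00374). For Hnrnpm the log2 difference ran from −0.04 in HP to 0.47 in STR, and for Hnrnpa1 from −0.13 in TH to 0.26 in STR. Hnrnpa2b1 passed as well (0.00916), whereas Srsf2 (0.0814), Srsf1 (0.103), Rbm17 (0.645), Sf3b4 (0.572) and Rbm12b1 (0.285) did not, which does not show that they rose alike in all zones. Without adult replicate 1, 3 members passed, and without adult replicate 2, 9. Without FT, 9 passed and Rbm24 missed the threshold at 0.0588. Shares of all genes are not given for these reduced fits, so the lower counts do not set the members apart.

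A second readout was the deposited Moran's I, a score of how strongly the spots next to each other share a gene's level in a section. The median of the members was 0.0154 and 0.0114 in P21, 0.00941 and 0.0122 in adult and 0.0263 and 0.0307 in aged sections, close to the medians of all genes, 0.0166 and 0.0113, 0.0136 and 0.0127, and 0.0226 and 0.0295. At most 1 member per section exceeded the 90th percentile of all genes. Rbm24 had the highest mean score of the members, 0.133, with 0.0832 and 0.0624 in P21, 0.0577 and 0.0879 in adult and 0.2403 and 0.264 in aged sections. The aged values were at percentiles 90.9 and 90.5 of their sections and the others between 80.1 and 87.4. Rbm47 averaged 0.128, with 0.0783 and 0.0478 in P21, 0.1835 and 0.0622 in adult and 0.214 and 0.185 in aged sections. Hnrnpa3 averaged 0.0672. Median scores of all genes were also higher in the aged than in the other sections.

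Other genes of the splicing machinery were listed from their known function, 123 in number, of which 111 were in the data and 108 were tested in whole sections. The list was made with earlier results of these data known, so its values are not independent evidence of a direction. In P21 vs. adult none was called by edgeR, against 5.19% of all genes. At an adjusted p under 0.05 alone 4 of the 108 rose and 10 fell, against 14.4% and 13.5% of all genes. An unadjusted p under 0.05 was found for 25, and the share of all genes under it was not computed. In aged vs. adult 13 were called higher and 1 lower, together 13% of those tested against 8.88% of all genes, with a median log2 fold change of 0.10 against 0.00 for all genes. The higher genes included Snrpa of the U1 snRNP, Lsm2 and Lsm3 of the U6 snRNP, Phf5a of SF3b, Prpf3 and Prpf19 of the spliceosome core, Srrm1 of nuclear speckles and Luc7l, and the lower gene was the helicase Dhx38. All of the higher genes also stand in the study's RNA splicing or mRNA processing categories, which were drawn from these same sections. By zone, 15 were higher and 0 lower in CTX, 9 and 4 in HP, 7 and 4 in TH, 16 and 3 in HY and 19 and 3 in STR. FT had 16 higher and 11 lower. The called shares were 13.9% in CTX, 12% in HP, 10.2% in TH, 17.6% in HY, 20.4% in STR and 25% in FT, against 10.8%, 11.8%, 13.7%, 11.9%, 14.4% and 24.4% of all genes. The lower genes in FT were Celf2, Celf3, Celf4, Celf5, Celf6, Khdrbs2, Khdrbs3, Nova2, Rbfox1, Rbfox3 and Tia1, of which the Celf, Nova and Rbfox genes are known from splicing in neurons, and the part of the pan-neuronal values given above in this was not tested.

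The study's splicing category for aged vs. adult holds at least 15 of the members. The study lists this category among higher genes in CTX, HP, TH, HY and STR and among lower genes in FT. Its test took spots as replicates, and its FT list includes Srsf1, Hnrnpa2b1 and Rbm17. The listed members were chosen on these sections, so their values here are not independent evidence of a direction. Of these, Srsf2, Rbm17, Sf3b4, Hnrnpa2b1, Rbm12b1 and Rbm28 were called in whole sections, and Hnrnpu, Srsf1, Srsf12, Rbm15b, Rbm24 and Sf3b1 in at least 1 zone. In FT itself, Srsf1 (0.67 ± 0.10, adjusted p = 4.07e-05), Hnrnpa2b1 (0.88 ± 0.10, adjusted p = 4.92e-06) and Rbm17 (0.86 ± 0.12, adjusted p = 4.86e-05) were called higher, as were Srsf2 and Sf3b4, while Rbm24, Srsf12 and Sf3b1 were called lower. Hnrnpa3 (−0.39 ± 0.09, adjusted p = 0.00307 in FT) and Srsf9 (−0.57 ± 0.10, adjusted p = 0.000225 in FT) fell there by less than the fold limit. Rbm20 was detected in 9.1% of all spots, under the 10% needed, and so was tested in no zone. It stood in FT at 6.55 and 4.45 CPM in adult and 16.7 and 8.55 in aged sections.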

How the data were processed

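Members, gene lists and tests were chosen with earlier results of these data known. The authors deposited raw counts, that is UMIs per gene and spot, made by Space Ranger 2.0.0 (P21 and adult) or 3.1.1 (aged) per the file headers from a mouse probe panel on mm10, and the labels name Space Ranger 2.1.0 and Seurat 5.1.0. They also deposited Moran's I per gene, a score from Space Ranger, with its p-value and a mean signal per gene scaled to the median depth, neither of which entered a test. A spot was kept at 250 genes and 500 UMIs or more, which left out 12 spots. Clustering used scanpy 1.11.5 and leidenalg 0.10.2 on 3000 variable genes without 186 splicing genes, 10 principal components and 20 neighbours at resolution 0.3 (0.1 within HP). This gave 13 clusters, named from marker panels.

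UMIs were summed per section and zone and fitted in edgeR 4.0.16 (R 4.3.3) with the quasi-likelihood test, TMM factors and age as the term, over all 6 sums. Genes entered after filterByExpr with detection in at least 10% of all spots and over 10% of the spots at either age compared. The fits were tested on simulated data with a common dispersion, for P21 vs. adult alone. At an adjusted p under 0.05 they recovered 100% of 2-fold changes in whole sections, 100% in CTX and 94% in FT. Of 1.5-fold changes they recovered 100%, 86% and 59% in the same order. False genes made up 3.85%, 5.58% and 6.71% of those passing. Adjusted p are Benjamini-Hochberg values over all genes tested. Replicate numbers did not pair the sections: deviations of same-numbered sections correlated at 0.14 for adult and P21, −0.44 for adult and aged and −0.14 for P21 and aged. Alternatives were plain CPM, DESeq2 1.42.0, edgeR's glmTreat, thinned UMIs, no filter, other zone definitions, the replicate number as a block and each section left out. With 2 sections per age, p-values measure the spread between sections with few degrees of freedom. Members were described in full under a rule on expression, fold change, calls, zone-by-age p, range over zones, Moran's I and the study's list, which named 37; Hnrnpf, Hnrnpul2, Sf3a3 and Sf3b5 were named after their values were seen. Gene positions are from GENCODE on GRCm38. Promoters were read from a RefSeq table on GRCm38.p6, in which 63 members matched.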

Additional observations from a re-analysis of the deposited data

Results flagged for a closer look

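The age difference differed between zones, by a test of the zone-by-age terms in edgeR, for 1 member at P21 and 15 in old age, each against adult. For P21 vs. adult this was Hnrnph3, with an adjusted p of 0.0491, and it missed the threshold whichever of the 4 P21 and adult sections was left out, at 0.206 to 0.366. It also missed it in DESeq2, at 0.0634, without FT, at 0.176, without the filter on low genes, at 0.0838, and on interior spots, at 0.0914.

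For aged vs. adult the adjusted p was 0.000155 for Srsf12 and 0.000551 for Rbm28, both of which passed in every alternative run. It was 0.000184 for Rbm24, 0.000324 for Hnrnpm and 0.00374 for Hnrnpa1. It was 0.00453 for Srsf6, 0.00462 for Srsf9, 0.00551 for Sf3b1 and 0.00565 for Hnrnph3. It was 0.00916 for Hnrnpa2b1, 0.0175 for Rbm34, 0.0332 for Srsf5, 0.0348 for Hnrnpll, 0.0351 for Hnrnpul2 and 0.0428 for Rbm22. Among these members, all but Srsf12, Rbm28 and Rbm24 missed the threshold without adult replicate 1, for example Hnrnpm at 0.0706, Hnrnph3 at 0.169 and Hnrnpll at 0.349. Without adult replicate 2, Hnrnpa1 was at 0.0588, Hnrnpa2b1 at 0.145, Sf3b1 at 0.141, Rbm34 at 0.0563, Srsf5 at 0.211, Hnrnpul2 at 0.208 and Rbm22 at 0.236. Without aged replicate 1, Rbm22, Rbm34 and Srsf5 missed it, and without aged replicate 2, Hnrnpll, Hnrnpul2 and Srsf5. Without FT, Sf3b1, Srsf9, Hnrnpll, Rbm22, Hnrnpul2 and Rbm24 missed it, and on interior spots Sf3b1, Srsf9, Rbm34, Hnrnph3, Hnrnpll, Rbm22 and Hnrnpul2. With zones from panel scores Srsf9, Hnrnpll and Hnrnpul2 missed it, without the filter on low genes Hnrnpa2b1, Srsf5 and Rbm22, and in DESeq2 Rbm22 and Hnrnpul2. Adult replicate 1 and aged replicate 2 are also the sections with the low hypothalamic panel, whose part in this was not tested.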

How the results depend on the processing

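Counts of member calls kept their size under most settings, and none of the called member differences that were recomputed reversed. Shares of all genes are not given for the settings below, so a changed count does not set the members apart from other genes. A test against the 1.5-fold limit (glmTreat) left 0 higher calls in whole sections and 0 higher and 0 lower over the zones for P21 vs. adult. For aged vs. adult it left 1 higher and 0 lower in whole sections and 8 higher and 3 lower over the zones. Without the filter on low genes, 2 members were higher at P21 in whole sections, 0 had a zone-by-age difference, and 19 lower zone calls were made in aged vs. adult. DESeq2 gave 1 higher zone call and 0 zone-by-age differences for P21. Without FT, 0 members had a zone-by-age difference for P21 and 9 for aged vs. adult. With each section left out in turn, P21 calls were 0 to 1 higher in whole sections, 0 to 2 higher and 1 to 3 lower over the zones and 0 zone-by-age. Aged calls were 6 to 7 higher and 0 to 2 lower in whole sections, 34 to 44 higher and 10 to 16 lower over the zones and 3 to 15 zone-by-age. With the replicate number as a block, 6 higher and 2 lower calls in whole sections and 38 higher and 12 lower over the zones were made for aged vs. adult, and 1, 0, 2 and 3 for P21, so the block changed no count by over 1.5 times. The crossed pairing of the aged sections, chosen after seeing the data, gave 6, 2, 39 and 12. The setting that kept all deposited spots was run for whole sections alone. The limit on detection over all spots kept members out of the tests in every zone. An example is Rbm20, detected in 9.1% of all spots, with 19 to 83 UMIs per section in FT.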

Other observations

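In the spots named meninges and vessels (1042), which entered no test, the summed level of the members was 7433 ± 0.779 CPM (SD, n = 2) in P21, 7438 ± 59.8 in adult and 7693 ± 152 in aged sections. Srsf2 stood there at 80.5 and 76.7 CPM (P21), 80.05 and 67.3 (adult) and 152 and 149 (aged), and Rbm24 at 49.7 and 49.2 CPM (P21), 40.02 and 58.6 (adult) and 50.3 and 54.4 (aged). Rbm44, the gene under the minimum, had 93 UMIs over 20336 spots. Of the members too low to test, Rbm46 had 216 UMIs and Rbm11 432 over the 6 sections.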
